A study of Mus musculus with 10 samples.

Results

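Potassium channel genes were followed in RNA-seq data of gastrocnemius muscle, a calf muscle, from 5 desmin knock-out mice (genotype Des -/-) and 5 wild-type mice (Des wt/wt), both on the host strain B6J with the donor strain and allele given as 129Sv-Destm1Cba/Cscl. The animals were 3 months old, and the controls were wild-type littermates. Desmin filaments tie the myofibrils of a muscle fiber to each other and to its membrane, and the knock-out is constitutive and not limited to muscle fibers. The labels name gastrocnemius, whereas the study's text also speaks of gastrocnemius together with the neighbouring plantaris, so plantaris may be included. The labels give no sex. The methods speak of RNA pooled from 5 muscles of each genotype, but the deposited table has 1 column per mouse, and each column was taken as 1 replicate. The members were all genes of the table with a symbol of the Kcn series followed by a family letter and a number and with the biotype protein-coding, except Kcne4. These were 92 of 54232 genes. The values are regularized log (rlog) values of DESeq2. They are log2 values after scaling by library size, and each gene's values are pulled in towards their mean, the more so the fewer its reads. A difference of 1 therefore stands for 2-fold on this scale and for more than that in counts. The depth of each library is unknown from such values. A gene was tested when its mean over the 10 mice reached log2(10), which 44 of the 92 members did. The other 48 fell below, with Kcnj3 (mean 3.33) just inside and Kcnc2 (mean 3.18) just outside the limit.

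Potassium channels let potassium leave the cell and thereby set the resting potential and end the action potential. Voltage-gated Kv channels repolarize the fiber after each action potential, and inward rectifiers (Kir) and the ATP-sensitive KATP channels hold the sarcolemma near the potassium equilibrium and lower its excitability when energy runs short. Tandem pore (K2P) channels carry background leak, and calcium-activated channels of the BK and SK types open when cytosolic calcium rises. Some Kv genes encode electrically silent subunits that form no channel alone and modify channels of the Kv2 family. Others encode accessory subunits without a pore.

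In desmin knock-out mice, 6 of the 44 tested members were higher and 7 were lower in comparison with controls, with an adjusted p under 0.05 (limma, Benjamini-Hochberg over all 14289 tested genes). That is 29.5% of the members, beside 13.7% of all tested genes, of which 7.7% were higher and 5.99% lower. Higher were Kcnn3, Kcnk5, Kcne1l, Kcng2, Kcnq3 and Kcnc1. Among the lower were Kcnf1, Kcng4, Kcnab1, Kcnj8 and Kcnj12. The genotypes did not overlap in 12 members (27.3%), beside 14.4% of all tested genes. Of these, 5 were higher in knock-out mice, beside 7.45% of all tested genes, and 7 were lower, beside 6.97%. The median difference of the members was -0.04 and that of all tested genes was -0.0029, and 23 of the 44 members had a lower mean in knock-out muscle, beside 50.5% of all tested genes. The median size of the difference without its sign was 0.33 in the members and 0.17 in all tested genes. Differences of at least 2-fold were found in 6 members with an adjusted p under 0.05, beside 2.27% of all tested genes.

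**Figure D1:**
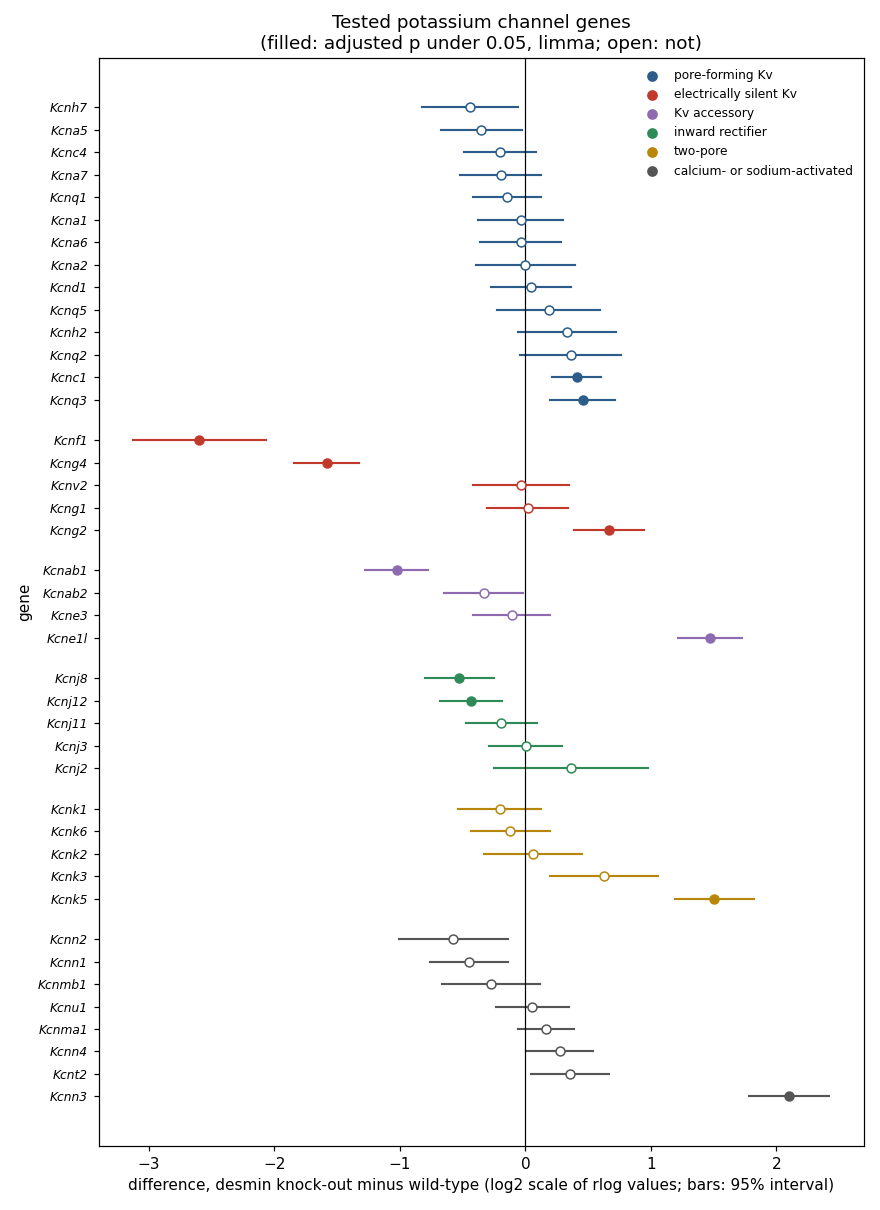
Difference between desmin knock-out and wild-type muscle on the log2 scale of the rlog values (x axis) for 41 of the 44 tested potassium channel genes (y axis), grouped by role, with 95% intervals from limma and filled points for an adjusted p under 0.05. The electrically silent genes Kcnf1 and Kcng4 lie farthest to the left, and Kcnn3, Kcnk5 and Kcne1l farthest to the right.

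Desmin transcript matched the genotype in all 10 libraries, with Des between 11.76 and 11.89 in knock-out and between 16.10 and 17.74 in wild-type mice, and all 6 skeletal muscle markers were present, of which 2 were lower (median difference -0.50). Wild-type mouse 3 stood apart from its group. It correlated with its group at 0.982 on average, beside 0.989 to 0.991 for the rest. Its summed level relative to the median mouse was 1.48, beside 0.949 to 1.06 for the other mice. Without wild-type mouse 3, 7 members were higher and 10 lower. Over all tested genes the same setting gave 1335 higher and 1159 lower, instead of 1100 and 856. The member counts include Kcnq3 and Kcnh7, each tested only through the group where it was high. Some markers of other cell types and of fiber types also passed the test, which 13.7% of all tested genes did. Of 9 fast fiber markers, 3 were lower (median difference -0.48), while Myh1 had a higher mean (difference 0.58, adjusted p = 0.132, limma). Of 7 slow fiber markers 2 were higher and 1, Myl3, was lower (median 0.28). Of 7 markers of regenerating fibers 5 were higher and 1, Myod1, was lower (median 1.23). Of 6 endothelial markers 4 were lower (median -0.45), of 6 fibroblast markers 3 were higher (median 0.45), and of 3 erythroid markers 2 were lower (median -0.74). No marker of Schwann cells (7 tested), smooth muscle and pericytes (6), macrophages (6) or adipocytes (5) passed the test, and all 5 T cell markers were below the limit. In whole muscle, fewer cells of a type and less RNA per cell cannot be told apart.

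The sequences before the transcription start are given for the pair of members with the largest fall and for the pair with the largest rise, since these genes carried the largest differences. RefSeq windows on GRCm38.p6 matched 28 of the 44 tested members by symbol. The 250 bases before the start are written 5′ to 3′ on the strand of the gene. Capitals mark the E-box, CANNTG, the core that myogenic basic helix-loop-helix factors such as MyoD and myogenin can bind. It reads the same on both strands.
Kcnf1, chr12:17176889-17177138, minus strand: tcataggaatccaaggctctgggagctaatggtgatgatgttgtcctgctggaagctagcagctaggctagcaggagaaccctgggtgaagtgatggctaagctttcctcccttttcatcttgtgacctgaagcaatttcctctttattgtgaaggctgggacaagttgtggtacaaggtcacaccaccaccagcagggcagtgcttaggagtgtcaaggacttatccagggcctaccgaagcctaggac
Kcng4, chr8:119635681-119635930, minus strand: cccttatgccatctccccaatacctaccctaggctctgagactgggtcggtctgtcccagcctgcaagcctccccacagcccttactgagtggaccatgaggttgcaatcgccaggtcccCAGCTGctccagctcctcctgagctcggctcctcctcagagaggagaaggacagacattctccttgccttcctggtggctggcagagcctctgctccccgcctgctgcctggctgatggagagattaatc
Kcnn3, chr3:89519914-89520163, plus strand: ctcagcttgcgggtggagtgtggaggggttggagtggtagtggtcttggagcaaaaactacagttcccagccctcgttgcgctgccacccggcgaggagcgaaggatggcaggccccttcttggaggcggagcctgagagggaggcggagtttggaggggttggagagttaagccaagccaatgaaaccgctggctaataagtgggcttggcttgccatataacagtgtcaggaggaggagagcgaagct
Kcnk5, chr14:20181783-20182032, minus strand: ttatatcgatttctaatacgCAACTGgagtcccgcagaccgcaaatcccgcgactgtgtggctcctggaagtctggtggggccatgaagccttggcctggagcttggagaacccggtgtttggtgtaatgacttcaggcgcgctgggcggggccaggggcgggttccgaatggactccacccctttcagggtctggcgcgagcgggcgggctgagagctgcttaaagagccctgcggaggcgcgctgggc
Kcng4 and Kcnk5 had 1 E-box each in this window, and Kcnf1 and Kcnn3 had none. Of all 32851 windows of this length, 66.2% held an E-box, and of the 28 windows of members 71.4% did.

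Electrically silent subunits showed the largest falls. These subunits assemble with pore-forming subunits of the Kv2 family and change their voltage dependence and kinetics. Of 10 members of this class 5 were tested, of which 2 were lower, 1 was higher and 2 did not pass. Those that passed were 60% of these few genes, beside 13.7% of all tested genes. Kcnf1 (ENSMUSG00000051726, chromosome 12 of GRCm38, 17172100 to 17176888), which encodes Kv5.1, had rlog values (log2 scale) of 7.25, 7.02, 7.60, 7.16 and 7.13 in knock-out mice 1 to 5 and of 10.58, 9.99, 8.95, 9.47 and 10.16 in wild-type mice 1 to 5. All knock-out values lay far below all wild-type values, and the wild-type mice were spread more widely (SD 0.63) than the knock-out mice (SD 0.22, n = 5 each). The difference was -2.60 (standard error 0.24, 95% interval -3.12 to -2.07, adjusted p = 1.15e-05, limma), which is 6.05-fold on the rlog scale. Without wild-type mouse 3, which had the lowest wild-type value, it was -2.82. The fast fiber markers had a summed level of 21.87 to 22.14 in knock-out and 22.20 to 23.05 in wild-type mice (log2 of the summed values). The top of that wild-type range was mouse 3, the mouse with the lowest wild-type Kcnf1 value. The part of these markers in the fall of Kcnf1 was not tested.

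Kcng4 (ENSMUSG00000045246, chromosome 8, 119623854 to 119635680), which encodes Kv6.4, had 9.56, 9.33, 9.46, 9.26 and 9.37 in knock-out mice and 10.68, 11.10, 11.26, 11.10 and 10.73 in wild-type mice. Here, too, the highest knock-out mouse was below the lowest wild-type mouse, by more than 1 log2 unit. The difference was -1.58 (standard error 0.12, adjusted p = 2.11e-06, limma), or 2.99-fold. Kcng2, which encodes Kv6.2, went the other way from a low level, with 4.16 ± 0.18 in knock-out mice, 3.49 ± 0.19 in controls (SD, n = 5 each) and no overlap. Its difference was 0.67 (standard error 0.13, adjusted p = 0.00351, limma). Kcng1 had a difference of 0.02 (95% interval -0.31 to 0.34) and Kcnv2 one of -0.04 (95% interval -0.42 to 0.34).

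Amigo1, which encodes a membrane protein that binds Kv2 channels and is no member, was lower, with 10.45 ± 0.08 in knock-out and 10.96 ± 0.15 in wild-type mice (SD, n = 5) and a difference of -0.51 (adjusted p = 0.00199, limma).

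**Figure D2:**
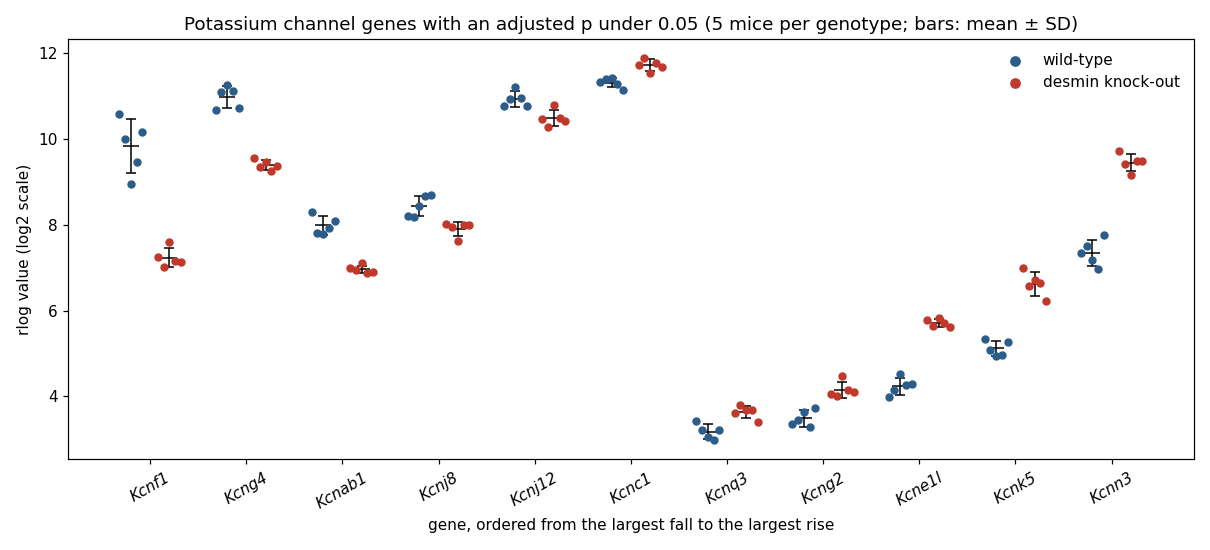
Rlog values on the log2 scale (y axis) of each mouse for 11 of the 13 potassium channel genes with an adjusted p under 0.05 (x axis), with 5 wild-type and 5 desmin knock-out mice per gene and bars for mean ± SD. The genotypes do not overlap in 9 of these 11 genes, the exceptions being Kcnj12 and Kcnq3.

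Among the pore-forming Kv genes, 17 of 30 members were tested, with 2 higher, 2 lower and 13 that did not pass. Those that passed were 23.5%, beside 13.7% of all tested genes. The Kv3 channels open at strongly positive potentials and close fast. Kcnc1 (ENSMUSG00000058975, chromosome 7, 46396497 to 46438704), which encodes Kv3.1, had 11.72, 11.88, 11.52, 11.77 and 11.69 in knock-out and 11.33, 11.40, 11.41, 11.28 and 11.14 in wild-type mice. The lowest knock-out mouse was just above the highest wild-type mouse. The difference was 0.41 (standard error 0.09, adjusted p = 0.00909, limma). Kcnc4, which encodes Kv3.4, had a difference of -0.20 (95% interval -0.49 to 0.08) with overlapping groups.

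In the Kv7 family, whose channels activate slowly at subthreshold potentials, Kcnq3 was higher from a low level, with 3.64 ± 0.14 in knock-out and 3.18 ± 0.17 in wild-type mice (SD, n = 5) and a difference of 0.46 (standard error 0.12, adjusted p = 0.0214, limma). Its wild-type mean was below the expression limit of log2(10), so it was tested only through the knock-out group, where it was high, and its place among the 6 higher members rests on that. Its highest wild-type mouse (3.42) lay above its lowest knock-out mouse (3.41). In 5 of 17 other settings its adjusted p was above 0.05, up to 0.0602 (limma). Kcnq5, a Kv7 gene with a higher level in this muscle, had a difference of 0.18 (95% interval -0.23 to 0.60). In the Kv1 family, Kcna7 had the highest level per length of the tested Kv members (rlog value minus log2 of the exon length in kb). It had a difference of -0.20 (95% interval -0.52 to 0.13). Kcna1, which axons of the nerve also express, had one of -0.04 (95% interval -0.38 to 0.30), and Kcna5 one of -0.35 (adjusted p = 0.148, limma).

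Accessory subunits of Kv channels had 4 of 11 members tested, of which the largest differences went in opposite directions. Kcnab1 (ENSMUSG00000027827, chromosome 3, 65109384 to 65378223) encodes Kvβ1, a cytoplasmic subunit that can make Kv1 channels inactivate fast. It had 6.99, 6.94, 7.10, 6.87 and 6.89 in knock-out and 8.31, 7.82, 7.78, 7.92 and 8.09 in wild-type mice, with a clear gap between the groups. The difference was -1.03 (standard error 0.12, adjusted p = 5.87e-05, limma), or 2.04-fold. Kcne1l (ENSMUSG00000090122, X chromosome, 142304752 to 142306294), also named Kcne5, encodes a small single-pass subunit that inhibits the channel of Kcnq1. It had 5.79, 5.64, 5.82, 5.71 and 5.61 in knock-out and 3.98, 4.16, 4.53, 4.25 and 4.28 in wild-type mice. All knock-out mice were more than 1 log2 unit above the highest wild-type mouse. The difference was 1.47 (standard error 0.12, adjusted p = 3.27e-06, limma), or 2.78-fold. Kcnq1 itself had a difference of -0.15 (95% interval -0.42 to 0.12). Kcne3, whose product MiRP2 assembles with Kv3.4 in skeletal muscle, had a difference of -0.11 (95% interval -0.42 to 0.20), and Kcnab2 one of -0.33 (adjusted p = 0.158, limma).

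Inward rectifiers included Kcnj11, the tested member with the highest level per length, which encodes the pore Kir6.2 of the KATP channel. Of 15 members 5 were tested, with 2 lower, none higher and 3 that did not pass. Those that passed were 40%, beside 13.7% of all tested genes. Kcnj11 (ENSMUSG00000096146, chromosome 7, 46093953 to 46100764) had 12.30 ± 0.09 in knock-out and 12.49 ± 0.30 in wild-type mice (SD, n = 5), a difference of -0.19 (95% interval -0.47 to 0.09). Its regulatory subunit in skeletal muscle, SUR2 of Abcc9, had a difference of -0.19 (adjusted p = 0.233, limma) and Abcc8 one of 0.19 (adjusted p = 0.502, limma). Kcnj8 (ENSMUSG00000030247, chromosome 6, 142564837 to 142571614), which encodes Kir6.1, the pore of the vascular KATP channel, was lower. It had 8.01, 7.95, 7.62, 7.99 and 7.99 in knock-out and 8.21, 8.19, 8.43, 8.66 and 8.68 in wild-type mice, without overlap. The difference was -0.53 (standard error 0.13, adjusted p = 0.0144, limma). The endothelial markers had a summed level of 11.63 to 12.11 in knock-out and 12.10 to 12.50 in wild-type mice (log2 of the summed values), and the smooth muscle and pericyte markers one of 13.36 to 13.64 and 13.55 to 14.27. Their part in the fall of Kcnj8 was not tested.

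The Kir2 channels, which carry the resting potassium conductance of the fiber, are encoded by Kcnj2 (Kir2.1) and Kcnj12 (Kir2.2). Kcnj12 had 10.49 ± 0.19 in knock-out and 10.92 ± 0.19 in wild-type mice (SD, n = 5), and knock-out mouse 3 (10.79) lay above the lowest wild-type mouse (10.76). The difference of -0.43 (standard error 0.11, adjusted p = 0.0227, limma) lost its adjusted p under 0.05 in 5 of 18 other settings, among them without knock-out mouse 1, 2, 4 or 5 (adjusted p between 0.0535 and 0.0698). Kcnj2 varied more between mice than any other tested member. Its values were 11.51, 11.51, 12.11, 11.64 and 11.55 in knock-out and 11.89, 11.95, 10.18, 10.90 and 11.59 in wild-type mice. The lowest were wild-type mice 3 and 4, while wild-type mice 1 and 2 lay above 4 of the 5 knock-out mice. The difference of 0.36 (95% interval -0.25 to 0.97, adjusted p = 0.44, limma) was within this spread, and it was 0.08 without wild-type mouse 3.

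Of the K2P genes, 5 of 14 were tested and 1 was higher, which is 20%, beside 13.7% of all tested genes that passed in either direction. Kcnk5 (ENSMUSG00000023243, chromosome 14, 20140057 to 20181809) encodes TASK-2, a leak channel that opens at alkaline pH. It had 6.99, 6.57, 6.70, 6.64 and 6.22 in knock-out and 5.34, 5.08, 4.94, 4.97 and 5.27 in wild-type mice. The gap between the groups was wider than the whole range of the wild-type mice. The difference was 1.504 (standard error 0.15, adjusted p = 1.41e-05, limma), or 2.84-fold. Kcnk3, which encodes the acid-sensitive TASK-1, had 4.62 ± 0.37 in knock-out and 3.99 ± 0.35 in wild-type mice (SD, n = 5) and missed the threshold (difference 0.63, adjusted p = 0.0535, limma). Without wild-type mouse 3 it passed, with a difference of 0.73 (adjusted p = 0.0207, limma). Kcnk1, Kcnk2 and Kcnk6 had differences of -0.20, 0.06 and -0.12.

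In the calcium- or sodium-activated class, 8 of 12 members were tested and 1 was higher. This is 12.5% of those tested, beside 13.7% of all tested genes that passed in either direction. Kcnn3 (ENSMUSG00000000794, chromosome 3, 89520164 to 89675132) encodes SK3, the small-conductance channel known from immature and denervated muscle fibers. It had 9.71, 9.41, 9.15, 9.48 and 9.49 in knock-out and 7.34, 7.50, 7.18, 6.97 and 7.76 in wild-type mice. Every knock-out mouse was more than 1 log2 unit above every wild-type mouse. The difference of 2.10 (standard error 0.15, 95% interval 1.78 to 2.42, adjusted p = 1.04e-06, limma), or 4.28-fold, was the largest rise of all tested members. Of the 7 markers of regenerating fibers 5 were higher, with Myh3 and Myog among them, and Myod1 was lower (difference -0.47). Together these markers had a summed level of 11.10 to 11.82 in knock-out and 10.39 to 10.86 in wild-type mice. Their part in the rise of Kcnn3 was not tested.

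Kcnn1 and Kcnn2 had lower means in knock-out muscle but did not pass the test. Kcnn1, which encodes SK1, had 9.46, 9.59, 9.66, 9.50 and 9.53 in knock-out and 9.74, 9.93, 10.62, 9.86 and 9.84 in wild-type mice. The groups did not overlap, but with the high value of wild-type mouse 3 the difference of -0.45 missed the threshold (adjusted p = 0.0556, limma). Without that mouse the difference was smaller, -0.30, and passed (adjusted p = 0.0127, limma). Kcnn2, which encodes SK2, had a difference of -0.57 (adjusted p = 0.0791, limma), and -0.71 without wild-type mouse 3 (adjusted p = 0.017, limma). Kcnn4, the intermediate-conductance channel also found in blood cells, had one of 0.27 (adjusted p = 0.172, limma). Per length, Kcnn3 was 3.27 to 4.62 below Kcnn1 in wild-type and 0.94 to 1.70 below it in knock-out mice. The exon lengths used for this cover all annotated transcripts (10.451 kb for Kcnn3 and 4.587 kb for Kcnn1). On the rlog values themselves Kcnn3 was above Kcnn1 in knock-out mouse 1 (9.71 and 9.46) and below it in every other mouse. No test is given for this pair, which was picked with its values known. Kcnma1, the pore of the BK channel, had a difference of 0.16 (95% interval -0.06 to 0.39), and its β1 subunit gene Kcnmb1 one of -0.27 (95% interval -0.66 to 0.12). Lrrc38, which encodes a γ subunit of BK, was lower with 10.01 ± 0.10 in knock-out and 10.63 ± 0.30 in wild-type mice (SD, n = 5) and a difference of -0.62 (adjusted p = 0.0061, limma).

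Levels of different genes were compared per length, as the mean rlog value of all 10 mice minus log2 of the exon length in kb. The highest levels belonged to Kcnj11 (10.51), Kcna7 (9.70), Kcnj12 (9.24), Kcnj2 (9.04), Kcnc4 (8.53), Kcnc1 (8.27) and Kcng4 (8.26). The order differed between the genotypes. Kcng4 was above Kcnc1 in wild-type (9.05 and 8.07) and below it in knock-out muscle (7.47 and 8.48). In wild-type muscle Kcnj2 (8.86 ± 0.75, SD, n = 5) was closer to its neighbours Kcng4 (9.05) and Kcnc4 (8.63) than its own spread, and in knock-out muscle Kcnc1 (8.48 ± 0.13) and Kcnc4 (8.42 ± 0.16, SD, n = 5) were closer to each other than theirs. In wild-type muscle Kcng4 took rank 4 and Kcnf1 rank 10 of the 44, and in desmin knock-out muscle they took ranks 8 and 17. Kcnn3 took rank 18 in wild-type and rank 13 in knock-out muscle. Of these 7 genes, those other than Kcng4 had differences between -0.43 and 0.41.

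**Figure D3:**
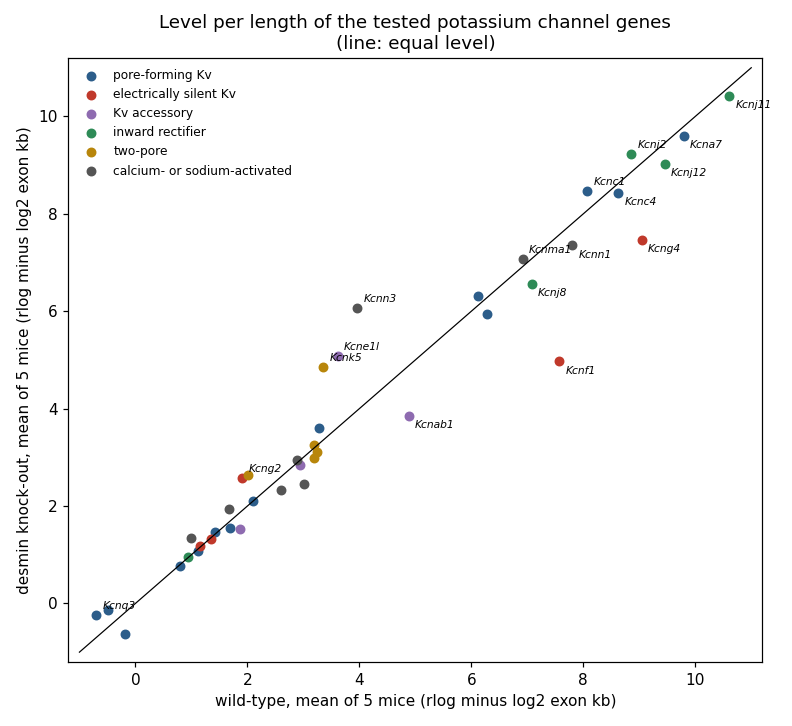
Mean level per length (rlog value minus log2 of exon length in kb) of 41 of the 44 tested potassium channel genes in 5 wild-type mice (x axis) and 5 desmin knock-out mice (y axis), coloured by role, with a line of equal level. Kcnf1 (7.57 and 4.97) and Kcng4 (9.05 and 7.47) lie below the line, Kcnn3 (3.96 and 6.06) above it.

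As a share of the level per length summed over the 44 tested members, electrically silent subunits made up 11.9% ± 0.88 in wild-type and 4.15% ± 0.35 in knock-out mice (SD, n = 5). Each knock-out mouse was at or below 4.61% and each wild-type mouse at or above 10.5%. K2P genes made up 0.679% ± 0.10 in wild-type and 1.17% ± 0.10 in knock-out mice, and calcium- or sodium-activated genes 6.24% ± 0.37 and 7.37% ± 0.26, also without overlap (SD, n = 5). Inward rectifiers held the largest share in both, 46.9% ± 1.8 and 49.0% ± 2.2 (SD, n = 5), with overlapping values. Pore-forming Kv genes made up 33.4% ± 1.9 and 37.2% ± 2.0, with overlapping values, and accessory genes 0.860% ± 0.13 and 1.11% ± 0.03, without overlap (SD, n = 5). The shares of a mouse add up to the whole, so the fall of one class raises the shares of the others. They were computed with the values of the genes known and were not tested.

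**Figure D4:**
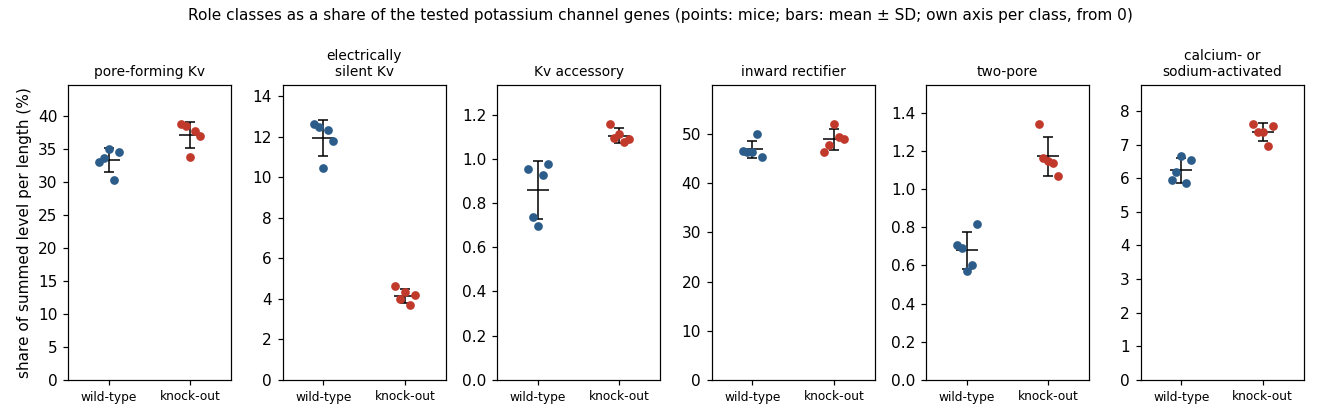
Share of each role class in the summed level per length of the 44 tested potassium channel genes (y axis, percent, own axis from 0 for each class) in each of 5 wild-type and 5 desmin knock-out mice, with bars for mean ± SD. The electrically silent class lies between 10.5% and 12.7% in wild-type and between 3.68% and 4.61% in knock-out mice.

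The spread between mice differed between the genotypes. Over the 44 tested members the median SD was 0.163 in knock-out and 0.281 in wild-type mice, and 0.276 without wild-type mouse 3. The mean correlation of a mouse with its group was also higher in knock-out (0.996 to 0.997) than in wild-type mice (0.982 to 0.991). The median SD over all tested genes is not given here, so the wider wild-type spread is not shown to be particular to the members. Of the members below the limit, 8 had the value 0 in all 10 mice and 22 had a mean under 0, among them Kcna4, Kcnj6 and Kcnk9. Without the expression limit 40 of these 48 could be fitted, and none had an adjusted p under 0.05 (limma), whereas 9 (22.5%) had an unadjusted p under 0.05, beside 13.7% of all 13864 genes below the limit that could be fitted and 27.6% of the genes above it. Among these 9, Kcnj5 and Kcnk9 had values identical to each other in every mouse. Differences were -0.01 in both and in Kcnh6, and -0.02 in Kcnk16, all at means under 0, so this share says little about such genes. Kcne1, Kcnj9 and Kcnk16 had groups that did not overlap (7.5%, beside 5.49% of all genes below the limit), at means of 0.01, -1.75 and -1.75. Their differences were 0.11, -0.02 and -0.02.

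Of 21 genes for proteins that regulate, bind or place potassium channels, or balance their currents at the sarcoplasmic reticulum, 18 were tested. Lower were Amigo1, Lrrc38, Dlg1 and Dlg4, and Tmem38b was higher, which is 5 genes beside 13.7% of all tested genes. Dlg1 and Dlg4 encode the scaffolds SAP97 and PSD-95, which bind the tails of Kv1 and Kir2 channels, and had differences of -0.40 (adjusted p = 0.0208, limma) and -0.74 (adjusted p = 0.0132, limma). Tmem38b, which encodes the TRIC-B cation channel of the sarcoplasmic reticulum, was higher by 0.26 (adjusted p = 0.049999, limma, just under the threshold), and Tmem38a, which encodes TRIC-A, had a difference of -0.37 (adjusted p = 0.163, limma). The median difference of the 18 genes was -0.14.

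The 13 changed members lay on 11 chromosomes. None was on chromosome 1, where the targeted gene Des is, and the tested members of that chromosome, Kcnq5, Kcnt2 and Kcnk2, started 54.0, 64.9 and 114 Mb from Des. The changed members Kcng2 (9.1% of exon bases) and Kcnab1 (2.3%) share exon bases with a gene on the opposite strand, and the library kit was stranded but the strand setting of the counting is not given in the sources used here.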

How the data were processed

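Gastrocnemius RNA-seq of 5 desmin knock-out mice and 5 wild-type littermates was analysed. The authors deposited 1 table of DESeq2 rlog values (log2 scale), and no counts were used here, so depth and counting error are unknown. Per the labels' processing notes, cutadapt 2.5, STAR 2.5.4a, Subread 1.6.1 (featureCounts) and DESeq2 were used on GRCm38. Replicates are separate mice by their titles.

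Symbols, biotypes, positions and exon lengths came from GENCODE M21 (GRCm38), which matched 54165 of 54232 genes. Genes whose mean reached log2(10) were fitted with limma 3.58.1 in R 4.3.3 (lmFit, eBayes with a trend of the prior variance on expression level, Benjamini-Hochberg over 14289 genes, two-sided), which was tested on simulated data. Promoter windows came from RefSeq.

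Named were Des, Kcnf1, every member with an adjusted p under 0.05, the 8 members with the highest level per length, the member with the smallest p in each role class, and 12 genes with a known role in muscle. Of these, 3 are not reported here, but they stay in the counts. Further members and partner genes named were chosen after their values were seen. The members and lists were chosen with earlier results of these data known. Alternatives were no expression limit or one of log2(50), quantile normalization, median centring, sample weights, one prior variance for all genes, a replicate block, a covariate from Y-linked transcripts, an adjusted p under 0.01, and leaving out each mouse.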

Additional observations from a re-analysis of the deposited data

Results flagged for a closer look

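For 19 named potassium channel genes, both genotypes were searched for a mouse lying apart from its group. This was so in 2 of 38 cases, and about 1.9 would be found by chance. Knock-out mouse 3 was the highest of its group for Kcnj2 (12.11) and the lowest for Kcnj8 (7.62).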

How the results depend on the processing

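Differences of named genes were recomputed under 18 alternatives. Of the 13 changed members, 11 stayed under an adjusted p of 0.05 with the same direction in each alternative in which they reached the expression limit. The exceptions were Kcnj12, lost without an expression limit (-0.43, adjusted p = 0.0516, limma) and without knock-out mouse 1, 2, 4 or 5 (-0.43 to -0.38), and Kcnq3, lost after quantile normalization (0.36), with the replicate block (0.46, adjusted p = 0.0584), with the Y-linked covariate (0.39) and without knock-out mouse 2 or 4 (0.42 and 0.44). The cause was not tested. Signs turned only in genes that did not pass: with sample weights Kcne3 (0.049), Kcnj11 (0.0027), Kcnj2 (-0.16) and Kcnq5 (-0.15), with the Y-linked covariate Kcnj2 (-0.050) and Kcnq5 (-0.051), and for Kcna1 without knock-out mouse 2 (0.019), knock-out mouse 3 (0.018) or wild-type mouse 5 (0.0086).

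The number of members higher was 3 instead of 6 with a limit of log2(50), where 21 members were tested, and 5 to 7 with each mouse left out. The number lower was 11 instead of 7 with sample weights, 4 at an adjusted p under 0.01, and 6 to 10 with each mouse left out, 10 being without wild-type mouse 3, when Kcnh7, Kcnn1 and Kcnn2 joined. Kcnh7 had a knock-out mean of 3.29, below the limit of log2(10), and a wild-type mean of 3.73. It was thus tested only through the wild-type group, where it was high, and its place among the lower members of any setting rests on that. Over all genes, sample weights gave 2093 higher and 2127 lower instead of 1100 and 856, an adjusted p under 0.01 gave 623 and 371, and leaving out a mouse gave 827 to 1335 and 560 to 1159. Median centring gave 942 higher and 979 lower over all genes and 6 and 8 members.

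Same-numbered mice of both genotypes did not deviate together (correlations of -0.22 to 0.067), so the numbers were not taken as pairs. With the replicate block, 913 genes were higher and 666 lower, and 6 and 8 members, with Kcnk3 and Kcnn1 gained and Kcnq3 lost. The rlog scale, on which low genes are drawn together, limits what can be seen for the 48 members below the expression limit.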
